A study of Mus musculus with 6 samples.

Results

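The 915 genes described here are the genes of mouse chromosomes 14 and 16 that had at least 60 reads summed over 6 RNA sequencing libraries. Chromosome 14 gave 476 members of its 1797 genes in the files, and chromosome 16 gave 439 of 1186, from 46983 genes in all. They were taken in order of their start in mm10 (GRCm38), from Esd-ps to Gm15422 on chromosome 14 and from Zfp263 to B230307C23Rik on chromosome 16. The 2 chromosomes were proposed because their genes were lower as a group in the comparison used below, so the members were chosen by values of this comparison and by their summed reads. Shifts of whole chromosomes and counts over members are given as a description of these libraries and carry no test. Of the members, 474 on chromosome 14 and 438 on chromosome 16 had enough reads to be tested, and the remaining Gm2237, Gm5406 and Rpl13-ps3 had 62, 62 and 63 reads in all. The threshold lay between genes with nearly equal totals: Cbln3 and 4930594M22Rik (57 reads each), Lamp3 (57) and Robo2 (58) were just outside, and Gm2237 (62), Gm10364 (63), Gm15806 (61) and Hrasls (61) were just inside.

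The libraries came from mouse embryo cells of C57BL/6 background, taken at 14 days and grown to passage 16 in DMEM with 10% fetal bovine serum. One group of 3 libraries was labelled wild type and the other group of 3 was labelled null for SphK2, sphingosine kinase 2, an enzyme that phosphorylates the lipid sphingosine. Both groups shared the medium and the passage number. Nothing in the labels ties the 3 libraries of a label to separate embryos or cultures, so the SDs and p-values measure the spread between libraries, which may be technical. The labels also did not describe the SphK2 allele.

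In most mammalian cells the RNA made from a gene rises and falls roughly with the number of copies of that gene, and an autosome that is lost or gained moves the RNA of many of its genes by a similar ratio. Embryonic fibroblasts kept in culture often change their chromosome number. Chromosome 16 of the mouse carries in its distal part a block of genes that in humans lie on chromosome 21, the chromosome present in an extra copy in Down syndrome, and nearer its start a block that in humans lies in 22q11, the segment deleted in DiGeorge syndrome. No DNA measurement was used here, so gene copies were not measured, and a ratio between the groups cannot tell a loss in one from a gain in the other.

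The libraries held between 15598566 and 23681718 reads assigned to genes, and 3 reads corresponded to between 0.127 and 0.192 CPM (reads per 1000000 assigned reads). Per-library values are given below for replicates 1, 2 and 3 labelled wild type against replicates 1, 2 and 3 labelled null. RNA of Sphk2, the targeted gene, was higher under the null label. Its mean was 27.3 ± 0.907 CPM (SD, n = 3) in the wild-type-labelled and 50.02 ± 1.35 CPM in the null-labelled libraries. Since the allele is not described, the reads of the whole gene cannot show whether it was disrupted. Every direction below refers to the labels as given. All 12 fibroblast markers examined were lower in the null-labelled libraries, with a summed level of 15199 to 15684 CPM in the wild-type-labelled and 3362 to 3397 CPM in the null-labelled group, and Thy1, a fibroblast surface marker, was at 0 in all 3 null-labelled libraries. Summed epithelial markers were 107 to 110 CPM against 385 to 412 CPM. That sum was mostly Krt8: of the 3 of 9 epithelial markers that could be tested, Krt8 and Krt7 were higher and Krt18 was lower, at 1.19 against 0.289 CPM. Summed pluripotent cell markers were 112 to 113 CPM against 0.320 to 0.768 CPM. Under the wild-type label that sum was nearly all Sox2, the only 1 of the 5 that could be tested. Lin28a and Zfp42 were at 0 in all libraries. On few reads, Pou5f1 was higher under the null label (0.0430 against 0.399 CPM) and Nanog lower (0.340 against 0.123 CPM). The 2 groups of cells thus differed in marker genes as well as in label, and the part of this difference in the results below was not tested. In bulk RNA, fewer cells of a type and less RNA per cell cannot be told apart.

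The sequence just upstream of a gene is where its transcription is set, and 6 members show the range of changes on the 2 chromosomes: on each, the member with the largest decrease and the largest increase among those that averaged 3 or more on the log2 CPM scale and had an upstream sequence, and a member among those with the highest CPM. The 250 bases before each RefSeq start are printed 5′ to 3′ on the gene's own strand (RefSeq, GRCm38.p6), with each CG dinucleotide in capitals, since dense CG runs mark the promoters of broadly expressed genes. On chromosome 14 these are Peli2 (chr14:48120619-48120868, plus strand), Stab1 (chr14:31168642-31168891, minus strand) and Ipo5 (chr14:120910944-120911193, plus strand). On chromosome 16 they are Epha3 (chr16:63864176-63864425, minus strand), Usp25 (chr16:77013819-77014068, plus strand) and Cct8 (chr16:87495870-87496119, minus strand).
Peli2: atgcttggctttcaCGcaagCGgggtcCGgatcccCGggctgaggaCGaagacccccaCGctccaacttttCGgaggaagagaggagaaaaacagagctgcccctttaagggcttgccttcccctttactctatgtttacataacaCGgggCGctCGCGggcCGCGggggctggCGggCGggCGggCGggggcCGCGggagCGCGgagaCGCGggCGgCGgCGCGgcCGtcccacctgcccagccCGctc
Stab1: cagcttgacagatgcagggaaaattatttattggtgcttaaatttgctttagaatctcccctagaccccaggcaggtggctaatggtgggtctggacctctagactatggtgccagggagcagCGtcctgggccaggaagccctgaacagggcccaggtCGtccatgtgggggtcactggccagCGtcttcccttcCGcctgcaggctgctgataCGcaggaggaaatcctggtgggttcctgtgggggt
Ipo5: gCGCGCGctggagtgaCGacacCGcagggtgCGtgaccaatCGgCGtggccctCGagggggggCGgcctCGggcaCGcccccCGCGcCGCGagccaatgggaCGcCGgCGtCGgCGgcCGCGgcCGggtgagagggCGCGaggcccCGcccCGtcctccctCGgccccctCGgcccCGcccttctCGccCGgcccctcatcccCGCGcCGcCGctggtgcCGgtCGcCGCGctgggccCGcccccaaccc
Epha3: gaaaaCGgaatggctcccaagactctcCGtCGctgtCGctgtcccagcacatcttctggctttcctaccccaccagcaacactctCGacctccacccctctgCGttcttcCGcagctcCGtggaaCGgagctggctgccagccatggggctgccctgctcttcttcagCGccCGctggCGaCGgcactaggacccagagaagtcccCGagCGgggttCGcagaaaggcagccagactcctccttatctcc
Usp25: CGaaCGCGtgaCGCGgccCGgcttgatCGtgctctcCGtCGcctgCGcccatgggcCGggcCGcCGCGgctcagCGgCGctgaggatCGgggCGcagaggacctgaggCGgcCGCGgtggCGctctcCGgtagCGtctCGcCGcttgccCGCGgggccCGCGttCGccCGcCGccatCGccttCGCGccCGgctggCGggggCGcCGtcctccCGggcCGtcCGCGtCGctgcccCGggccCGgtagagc
Cct8: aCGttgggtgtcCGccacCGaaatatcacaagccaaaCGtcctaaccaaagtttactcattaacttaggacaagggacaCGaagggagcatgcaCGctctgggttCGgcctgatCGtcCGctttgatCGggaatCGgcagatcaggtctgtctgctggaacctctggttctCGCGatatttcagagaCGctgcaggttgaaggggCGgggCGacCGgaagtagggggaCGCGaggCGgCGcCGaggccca

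The CG dinucleotide was searched as these 2 letters, which read the same on both strands. Peli2 had 29, Stab1 5, Ipo5 42, Epha3 16, Usp25 47 and Cct8 22. At least 1 CG was present in 92.1% of the 32851 upstream sequences of the same length in the RefSeq table, with a median of 6. Peli2, an E3 ubiquitin ligase of innate immune signalling, and Epha3, an ephrin receptor, were nearly silent in the null-labelled libraries, and Stab1, a scavenger receptor, had the fewest CG of the 6. Ipo5, a nuclear import receptor, and Cct8, a subunit of the cytosolic chaperonin, are made in nearly all cells and moved little.

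Chromosome 14 genes took 3.43%, 3.42% and 3.42% of all reads on autosomal genes under the wild-type label, against 2.73%, 2.73% and 2.73% under the null label. Chromosome 16 took 3.23% in each library labelled wild type, against 2.33%, 2.32% and 2.30% under the null label. The groups did not overlap on either chromosome, and these shares, which used every gene of the chromosome and no filter, gave a ratio of 0.797 for chromosome 14 and 0.716 for chromosome 16. The median gene moved by a similar amount. In the 3 null-labelled libraries the median chromosome 14 member stood at -0.34, -0.32 and -0.31 on the log2 scale against the wild-type-labelled mean, relative to the median gene of the other autosomes. The same value for chromosome 16 was -0.46, -0.45 and -0.47, while the wild-type-labelled libraries all lay within 0.005 of 0.

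Of the 474 tested members of chromosome 14, 310 were lower under the null label and 82 were higher at an adjusted p under 0.05 (edgeR quasi-likelihood test, Benjamini-Hochberg over all genes), and 82 did not pass. Of the 438 on chromosome 16, 310 were lower and 57 higher, and 71 did not pass. Across all 15199 genes tested, 79.2% passed, 41.1% lower and 38.1% higher, so most genes differed between these groups wherever they lay. The 2 groups of libraries did not overlap in 312 members that were lower and 81 that were higher on chromosome 14 and in 309 and 57 on chromosome 16, beside 79.9% of all genes tested, 41.4% lower and 38.6% higher. Lower calls made up 65.4% of the tested members of chromosome 14 and 70.8% of those of chromosome 16, beside 39.3% of the 13392 genes of the other autosomes. The median log2 fold change was -0.34 on chromosome 14 and -0.46 on chromosome 16, beside 0.010 on the other autosomes, which places the chromosomes 0.35 and 0.47 below the rest on the log2 scale, or at 0.786 and 0.720 of its level. No other autosome had a median this low. Because the 2 chromosomes were chosen for low values in this comparison, that rank is not an independent finding. Chromosome 1 was nearest with a shift of -0.31, chromosome 3 followed at -0.23, and chromosome 8 lay at the other end with 0.63.

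**Figure D1:**
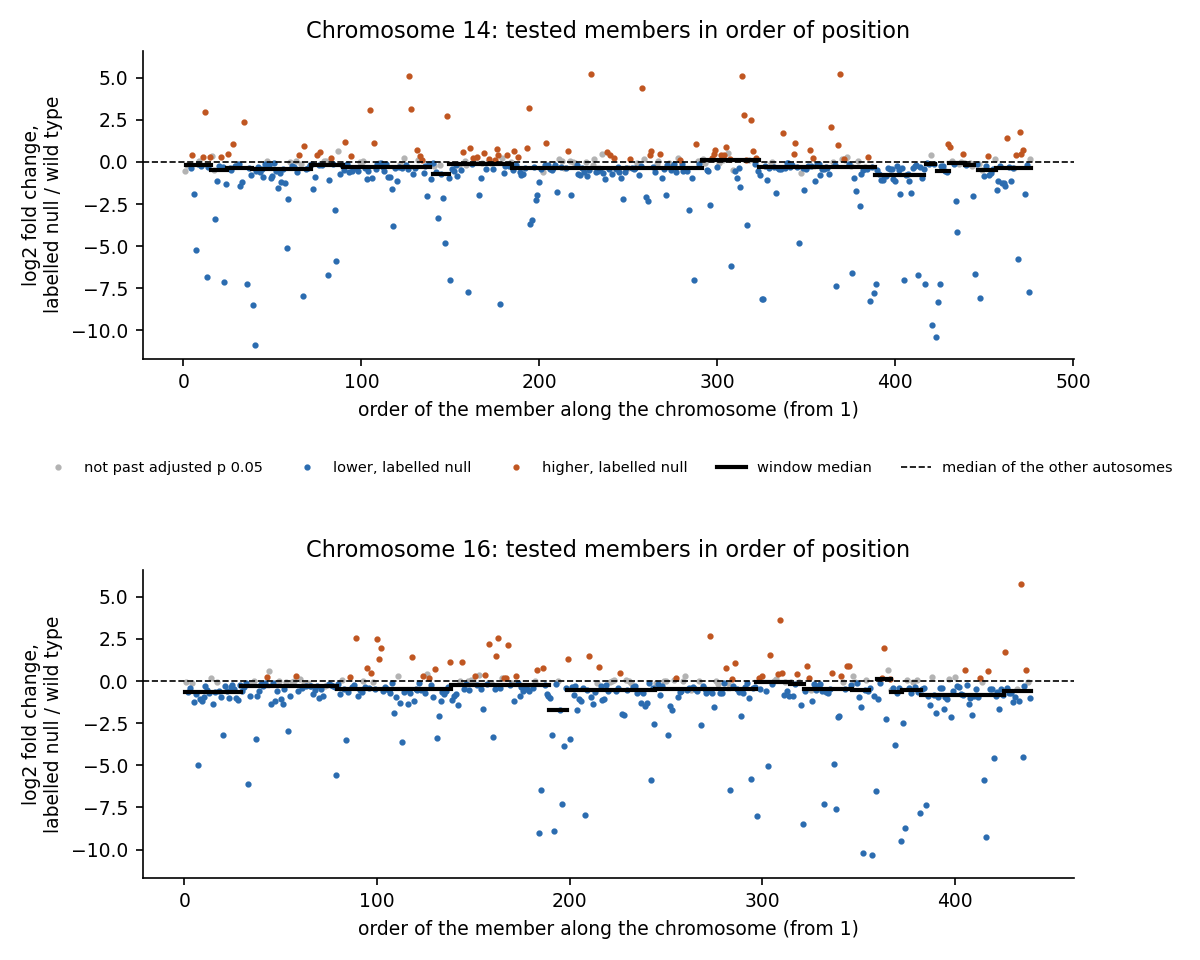
Log2 fold change (null-labelled over wild-type-labelled) of each tested member by its order along chromosome 14 (top) and chromosome 16 (bottom), with lower calls in blue, higher calls in orange, members not past the threshold in grey, medians of 5 Mb windows with at least 5 tested members as black bars, and the median of the other autosomes dashed. Most bars lie below the dashed line along both chromosomes, while single members reach far below and above it; fitted values of members with 0 reads in a group depend on the prior count.

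A uniform loss of dose would lower every gene of a chromosome by 1 ratio, so the shifts were set beside the log2 values of 3/4 (-0.42), 2/3 (-0.58) and 1/2 (-1). On chromosome 14 the 10th, 25th, 50th, 75th and 90th percentiles lay 0.34, 0.33, 0.35, 0.44 and 0.53 below those of the other autosomes on the log2 scale. On chromosome 16 they lay 0.23, 0.48, 0.47, 0.53 and 0.71 below. The middle of both distributions thus moved by close to 1 amount, and the upper end moved further than the median on both. The chromosome 14 values fell on both sides of the log2 of 3/4, those of chromosome 16 between the log2 of 3/4 and of 2/3 at the 25th to 75th percentiles and outside that range at the 10th and 90th, and no percentile of either chromosome reached the log2 of 1/2. Such shifts were not particular to chromosomes 14 and 16. At the 25th, 50th and 75th percentiles chromosome 3 moved by -0.30, -0.23 and -0.25, and chromosome 8 by 0.65, 0.63 and 0.53. The 90th percentile lay further down than the median on chromosomes 1 (-0.39 against -0.31) and 3 (-0.39 against -0.23), but not on chromosome 15 (0.0090 against -0.16).

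**Figure D2:**
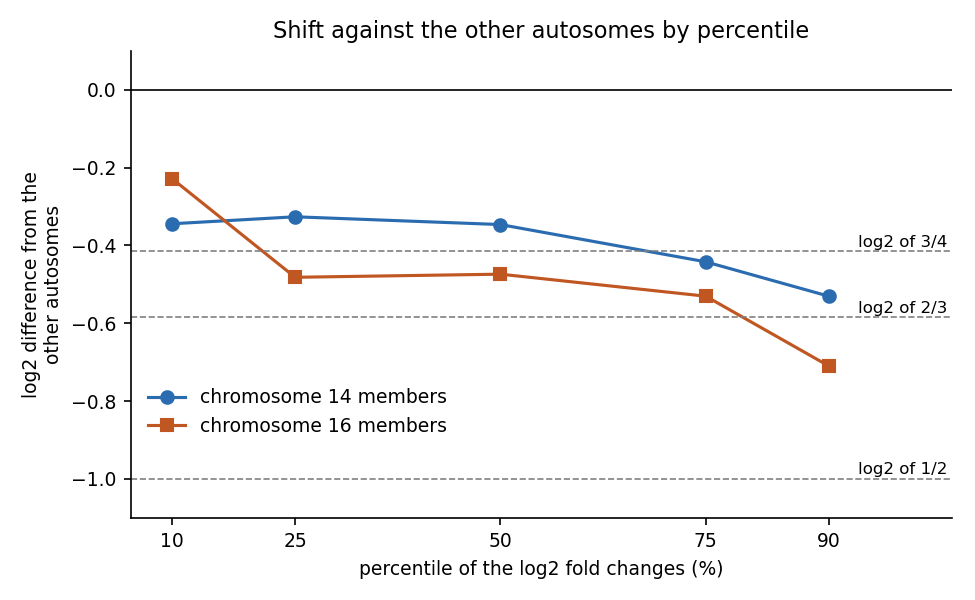
Difference between the percentiles of the log2 fold changes of chromosome 14 (circles) or chromosome 16 (squares) members and the same percentiles of the other autosomes, with dashed lines at the log2 of 3/4, 2/3 and 1/2. Chromosome 14 runs from -0.34 to -0.53 and chromosome 16 from -0.23 to -0.71 across the 10th to 90th percentile.

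Single members were then compared with each dose in the same edgeR fit, by setting the expected ratio of their chromosome to that dose. Against 3/4, 371 of the 474 chromosome 14 members differed at an adjusted p under 0.05, 211 above it and 160 below it, and 351 of the 438 chromosome 16 members differed, 154 above and 197 below. In that fit 79.0% of all genes passed, and 79.2% of the genes of the other autosomes differed from no shift. Against no shift, 396 and 368 members differed, and against 2/3, 407 and 356, with 79.3% of all genes passing in both fits. Against 1/2, 432 and 386 members differed, of which 350 and 306 lay above it, with 79.7% of all genes passing. With each chromosome compared with its own median, 364 and 344 members still differed, beside 78.9% of all genes. Most members of either chromosome thus differed from each single ratio tried, and the shares that differed from 3/4 or from their own median were close to the share of the other autosomal genes that differed from no shift. The median distance from the 3/4 ratio was 0.41 on the log2 scale on both chromosomes, beside a median distance of 0.45 from no shift among the other autosomal genes. Within 0.25 of the log2 of 3/4 lay 35.2% of chromosome 14 and 32.2% of chromosome 16 members, beside 19.97% of the other autosomal genes. Around their own centre the shares were closer: 31.3% of the other autosomal genes lay within 0.25 of their median, beside 38.6% of chromosome 14 and 33.6% of chromosome 16 members around theirs. Taken singly, the other autosomes ranged from 24.8% (chromosome 6) to 39.5% (chromosome 11) around their own medians, and chromosomes 14 and 16 lay inside that range.

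The shift was present at every level of expression. In the highest tertile of genes by average CPM the chromosome 14 median lay 0.33 and the chromosome 16 median 0.51 below that of the other autosomes in the same tertile, and in the middle tertile these differences were 0.35 and 0.45. In the lowest tertile the differences were 0.34 and 0.52. What changed with level was the spread: the interquartile range of the log2 fold changes was 0.45 and 0.48 in the highest tertile and 2.25 and 1.88 in the lowest, beside 0.62 and 1.61 on the other autosomes. Members with many reads thus lay close together below the rest, and those with few scattered. The proximal, middle and distal tertiles of each chromosome, with 158 members each on chromosome 14 and 146 each on chromosome 16, were also alike, at -0.35, -0.29 and -0.39 on chromosome 14 and -0.47, -0.42 and -0.51 on chromosome 16 relative to the other autosomes.

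In 5 Mb windows cut from the first base, 20 of 25 windows on chromosome 14 and 18 of 20 on chromosome 16 held at least 5 tested members. The window median lay below that of the other autosomes in 19 of the 20 and 17 of the 18, and 57.4% of the 430 such windows elsewhere did. The window medians had an SD of 0.21 on chromosome 14 and 0.38 on chromosome 16. Over the windows of all other autosomes pooled, which ranged from -6.70 to 1.14, the SD was 0.65. That pooled value also holds differences between chromosomes, whose medians ran from -0.29 (chromosome 1) to 0.64 (chromosome 8), so it is not a like comparison. On chromosome 14, 14 of the 20 windows lay within 0.25 of the log2 of 3/4, and on chromosome 16, 13 of the 18 did. Of the 430 windows elsewhere, 130 did. Low medians were spread over the length of both chromosomes, although single windows stood apart.

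**Figure D3:**
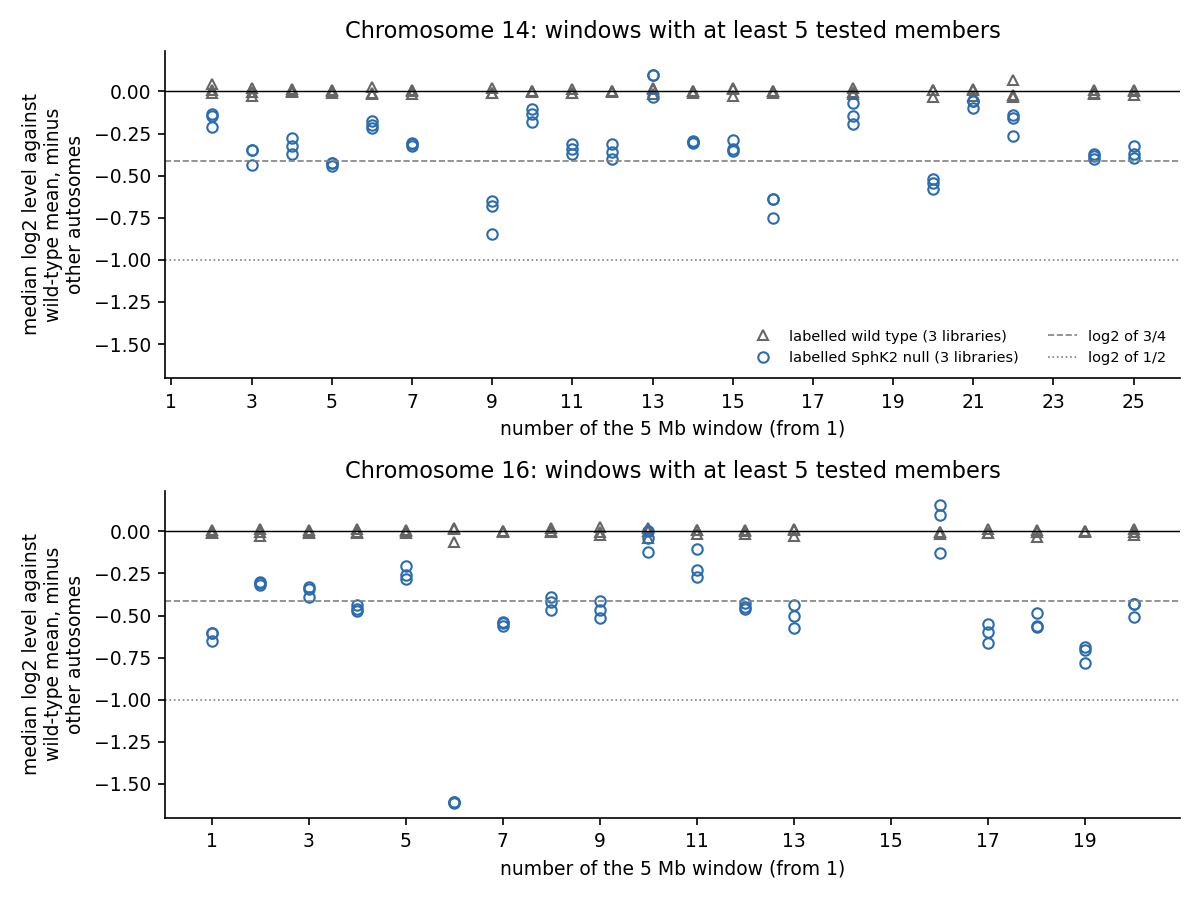
Median over the tested members of each 5 Mb window of the log2 level in a library against the wild-type-labelled mean (0.5 CPM added), minus the same median over the other autosomes, by window number on chromosome 14 (top) and 16 (bottom). The 3 null-labelled libraries (circles) lie close together within a window and below the wild-type-labelled libraries (triangles) in most windows, and the exceptions are windows 13 of chromosome 14 and 10 and 16 of chromosome 16, where the groups meet or cross.

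The lowest window of chromosome 14 ran from 75 to 80 Mb, where all 28 tested members were lower and the median log2 fold change was -0.75. Its member with the highest CPM was Tsc22d1 (chr14:76414961-76507765, plus strand), a leucine zipper transcription regulator of the TGF-beta response, with 232, 234 and 235 CPM against 114, 115 and 118 CPM (log2 fold change -1.01 ± 0.029 SE, edgeR adjusted p = 1.88e-259). The groups were far apart, at close to 1/2. This window lay inside the longest unbroken run of lower calls on the chromosome, 34 tested members from Htr2a to Tdrd3, beside a longest run of 17 on chromosome 16 and of 21 on any other autosome. Tpt1, which encodes a translationally controlled tumour protein found in most cells, lies in the same run and had 28.9, 26.1 and 23.8 CPM against 18.3, 12.3 and 13.3 CPM.

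On chromosome 16 the lowest window ran from 25 to 30 Mb and held only 9 tested members, with a median of -1.72. Its members went different ways. Ccdc50, an effector of receptor signalling and the one of the 9 with the highest CPM, had 198, 196 and 185 CPM against 197, 197 and 189 CPM, and its groups overlapped (edgeR adjusted p = 0.74). Opa1, which fuses mitochondrial inner membranes, was at -0.44 on the log2 scale, Il1rap, a subunit of the interleukin-1 receptor, at -0.20, and P3h2, a collagen prolyl hydroxylase, at -3.18. Cldn1, a tight junction protein, had 2.71, 3.54 and 3.25 CPM against 0, 0 and 0 CPM, at least 57.4-fold lower. With 9 members, the median was the value of a single gene. Such a low median was not found with larger or shifted windows, where the lowest median of the chromosome was -0.73 (10 Mb windows) or -0.83 (shifted by 2.5 Mb).

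A window of 43 tested members between 90 and 95 Mb, in the block shared with human chromosome 21, had a median of -0.81, with 36 lower and 3 higher. The highest windows were 60 to 65 Mb on chromosome 14, with a median of 0.10 and 12 lower and 13 higher calls, and 75 to 80 Mb on chromosome 16, with a median of 0.13 over 7 members. Both fell below 0 with 10 Mb windows (-0.11 and -0.12) and with windows shifted by 2.5 Mb (-0.045 and -0.051). The chromosome 14 value was 0.049 without null-labelled replicate 1, 0.064 without wild-type-labelled replicate 3 and 0.027 for members with at least 600 reads, and the chromosome 16 value was 0.0080 with a filter over 1 CPM in at least 3 libraries. In the chromosome 14 window, Ctsb, a lysosomal protease and the member with the highest CPM there, had 624, 656 and 645 CPM against 492, 511 and 517 CPM (log2 fold change -0.34 ± 0.023 SE), and 16.2% of its exonic bases are shared with Fdft1, where reads were not counted. Sox7, a transcription factor of endoderm and endothelium in the same window, had 3.23, 3.74 and 3.98 CPM against 20.3, 20.2 and 19.6 CPM (log2 fold change 2.47 ± 0.10 SE). In the chromosome 16 window the highest CPM was that of Gm9843, a processed pseudogene, with 201, 206 and 197 CPM against 233, 225 and 230.2 CPM. Its reads can come from a parent gene on another chromosome, so they may not describe this window.

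Genes of the general machinery of the cell moved little and mostly the same way. Of the 31 listed on chromosome 14, which serve translation, protein turnover, transport and transcription, 25 were lower, 1 higher and 5 did not pass, with a median of -0.23. Of the 36 on chromosome 16, 33 were lower, 2 higher and 1 did not pass, with a median of -0.41 and an interquartile range of -0.52 to -0.25. The median over all tested genes was -0.020, with 41.1% lower, and no machinery gene was more than 8-fold lower. Among members in the highest tertile by average CPM, 134 of 171 on chromosome 14 and 121 of 139 on chromosome 16 were lower. Their medians were -0.30 and -0.48, so the machinery genes lay near the abundant members of their chromosomes. Eif4g1, the scaffold of the translation initiation complex and the member with the highest CPM of all, had 1536, 1560.0 and 1552 CPM against 1098, 1096 and 1108 CPM (log2 fold change -0.49 ± 0.021 SE, edgeR adjusted p = 2.39e-125). Every null-labelled library lay below every wild-type-labelled one.

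Other machinery members followed with small spreads. Cct8 had 941, 959 and 979 CPM against 731, 753 and 738 CPM, a log2 fold change of -0.37 ± 0.022 SE. Psmd2, a subunit of the proteasome cap, fell from 613 ± 13.6 to 511 ± 4.62 CPM (log2 fold change -0.26 ± 0.023 SE), and Ipo5 from 798 ± 8.96 to 678 ± 5.25 CPM (-0.23 ± 0.022 SE). With Eif4g1, these 4 members, the ones with the highest CPM among the listed machinery genes that fell, stood at between -0.49 and -0.23. The largest decreases of the group were in Ncbp2, a subunit of the complex that binds the cap of messenger RNA, with 92.4, 91.3 and 91.6 CPM against 37.8, 35.8 and 34.01 CPM, and in Atp5o and Atp5j, subunits of the mitochondrial ATP synthase, at -0.86 and -0.74 on the log2 scale. Atp5o shares 44.0% and Atp5j 12.7% of its exonic bases with neighbouring genes. On chromosome 14 the largest were Tpt1, Apex1, a DNA repair endonuclease, at -0.69 (61.7% of its bases shared with Pip4p1), and Psme2, a proteasome activator subunit, at -0.58. Tfrc, the transferrin receptor that takes iron into the cell, went the other way with 519.9, 515 and 514 CPM against 731, 738 and 704 CPM (log2 fold change 0.49 ± 0.022 SE).

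Genes of DNA replication and mitosis were lower or did not pass on both chromosomes. Of 13 on chromosome 14, 10 were lower, none higher and 3 did not pass (median -0.18), and of 14 on chromosome 16, 11 were lower, none higher and 3 did not pass (median -0.60). Over all genes tested 41.1% were lower and 38.1% higher, and the chromosomes as a whole had 65.4% and 70.8% lower, so these counts were near those of their chromosomes. Cdc45, part of the replicative helicase, had 107, 103 and 105 CPM against 47.03, 44.7 and 45.3 CPM (log2 fold change -1.20 ± 0.041 SE, edgeR adjusted p = 1.55e-189). Spice1, a centriole protein, fell from 15.8 ± 0.557 to 7.80 ± 1.003 CPM, and Mis18a, which helps to load the centromeric histone, from 33.9 ± 0.557 to 18.5 ± 1.59 CPM. Both therefore stood near 1/2. On chromosome 14 the changes were smaller: Cenpj, a centriole assembly protein, fell from 21.9 ± 1.06 to 14.1 ± 1.22 CPM, Lats2, a kinase of the Hippo pathway, from 57.5 ± 0.818 to 38.4 ± 1.03 CPM, and Mzt1, which recruits the gamma-tubulin ring, from 88.6 ± 1.92 to 75.1 ± 2.47 CPM. Rb1, the retinoblastoma protein, did not pass, at 0.035 on the log2 scale.

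Of 61 listed members in the block of chromosome 16 that corresponds to human chromosome 21, 52 were lower, 3 higher and 6 did not pass, with a median log2 fold change of -0.73 and an interquartile range of -1.65 to -0.40. Lower calls made up 41.1% of all genes tested (median -0.020) and 70.8% of chromosome 16 members (median -0.46). Several are the genes best known from Down syndrome. Sod1, superoxide dismutase, had 185, 185 and 193 CPM against 131, 135 and 136 CPM (log2 fold change -0.48 ± 0.029 SE). Dyrk1a, a kinase studied in brain growth, had 125, 118 and 122 CPM against 69.8, 72.8 and 66.2 CPM (-0.81 ± 0.036 SE), and Hmgn1, a nucleosome-binding protein, had 188, 176 and 186 CPM against 108, 109 and 116 CPM (-0.73 ± 0.030 SE). These 3 members, named after their values were seen, lay between the log2 of 3/4 and 1/2. Others left that range. App (chr16:84954440-85173707, minus strand), the amyloid precursor protein, had 107, 109 and 109.7 CPM against 0.205, 0.175 and 0.0533 CPM. Its log2 fold change was -9.49, from 6242 against 8 reads. Cbr3, a carbonyl reductase, had 4.13, 4.33 and 3.77 CPM against 0, 0 and 0 CPM, at least 75.04-fold lower. Adamts5, a protease of cartilage aggrecan, had 608 reads over the wild-type-labelled and 1 over the null-labelled libraries, a ratio of 585 (95% counting interval 105 to 23139).

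The 3 higher members of this block were Runx1, a transcription factor, at 0.18 on the log2 scale, and Usp25 and Ets2. Usp25 (chr16:77014069-77116779, plus strand), a deubiquitinating enzyme, had 16.7, 16.1 and 16.1 CPM against 66.4, 61.3 and 60.9 CPM (log2 fold change 1.95 ± 0.054 SE, edgeR adjusted p = 1.33e-276). Ets2, a transcription factor downstream of Ras signalling, had 63.2, 58.9 and 62.5 CPM against 209.9, 207 and 198 CPM (1.73 ± 0.033 SE). In both genes every null-labelled library was more than 3 times every wild-type-labelled one. In the block that corresponds to 22q11, 25 of 30 members were lower, 4 higher and 1 did not pass, with a median of -0.53, close to the 70.8% lower and the median of -0.46 of chromosome 16 as a whole and beside 41.1% lower among all genes. Slc25a1, the mitochondrial citrate carrier, had 28.3, 30.5 and 28.9 CPM against 10.96, 11.4 and 11.03 CPM (log2 fold change -1.39 ± 0.071 SE), and Tbx1, the transcription factor of the DiGeorge heart defects, was higher, at 0.72. Hic2, a transcriptional repressor, had 5.38, 5.77 and 6.96 CPM against 15.6, 14.5 and 14.1 CPM (1.29 ± 0.097 SE), with 48.6% of its exonic bases shared with Gm26635.

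Genes of interferon signalling and response were nearly all lower. All 13 on chromosome 16 were lower, with a median of -1.50, and on chromosome 14, 6 of 7 were lower and 1 did not pass, with a median of -0.58. The shares of lower calls were 70.8% over chromosome 16, 65.4% over chromosome 14 and 41.1% over all genes tested, whose median was -0.020. Of the receptors, Ifngr2, the second chain of the interferon gamma receptor, had 71.1, 73.2 and 74.5 CPM against 16.7, 15.8 and 16.9 CPM (log2 fold change -2.15 ± 0.053 SE). Ifnar1 and Ifnar2, both chains of the type I interferon receptor, stood at -1.06 and -1.65 on the log2 scale. Among their signal transducers, Irf9, part of the factor that binds interferon response elements, had 51.7, 50.5 and 41.9 CPM against 10.3, 10.7 and 10.6 CPM (-2.19 ± 0.064 SE). Among their target genes, Rtp4 had 45.3, 49.4 and 34.7 CPM against 0.717, 0.409 and 0.3198 CPM (edgeR adjusted p = 7.41e-08) and Parp14, an ADP-ribosyltransferase, had 47.7, 49.3 and 36.3 CPM against 5.74, 4.56 and 3.998 CPM (edgeR adjusted p = 8.12e-10). Wild-type-labelled replicate 3 was the lowest of its group in Irf9, Rtp4 and Parp14, and still stood above every null-labelled library.

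Genes of the extracellular matrix, cell adhesion and proteolysis held many of the largest losses. On chromosome 14, 20 of 21 were lower and 1 did not pass, with a median of -1.69, and on chromosome 16, 25 of 27 were lower, 1 higher and 1 did not pass, with a median of -3.46. More than 8-fold lower were 6 and 15 of them. Among all genes tested 41.1% were lower and 8.68% more than 8-fold lower, with a median of -0.020. Col8a1, a collagen of basement membranes, had 372, 376 and 368 CPM against 2.15, 2.04 and 1.599 CPM (log2 fold change -7.59). Alcam, a cell adhesion molecule, had 78.98, 77.5 and 78.9 CPM against 0.154, 0.292 and 0.213 CPM, and Gpc6, a heparan sulphate proteoglycan, had 34.9, 34.4 and 36.02 CPM against 0.0512, 0.117 and 0.213 CPM. These values were at or close to the level of a few reads in the null-labelled libraries. Pcdh9 and Pcdh20, protocadherins, had 504 and 309 reads over the wild-type-labelled libraries and none over the null-labelled, at least 162-fold and 99.1-fold lower. Epha3 had 29.2, 28.3 and 29.6 CPM against 0, 0.0584 and 0 CPM, a ratio of 1613 (95% counting interval 289 to 63758). The fibroblast markers given above fell in the same libraries.

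Not all members of this group moved so far. Lgals3, the secreted lectin galectin-3, had 592, 613 and 603 CPM against 594, 605 and 592 CPM, with overlapping groups (edgeR adjusted p = 0.63). Pkp2, a desmosome plakophilin, was the higher member, at 0.23 on the log2 scale.

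**Figure D4:**
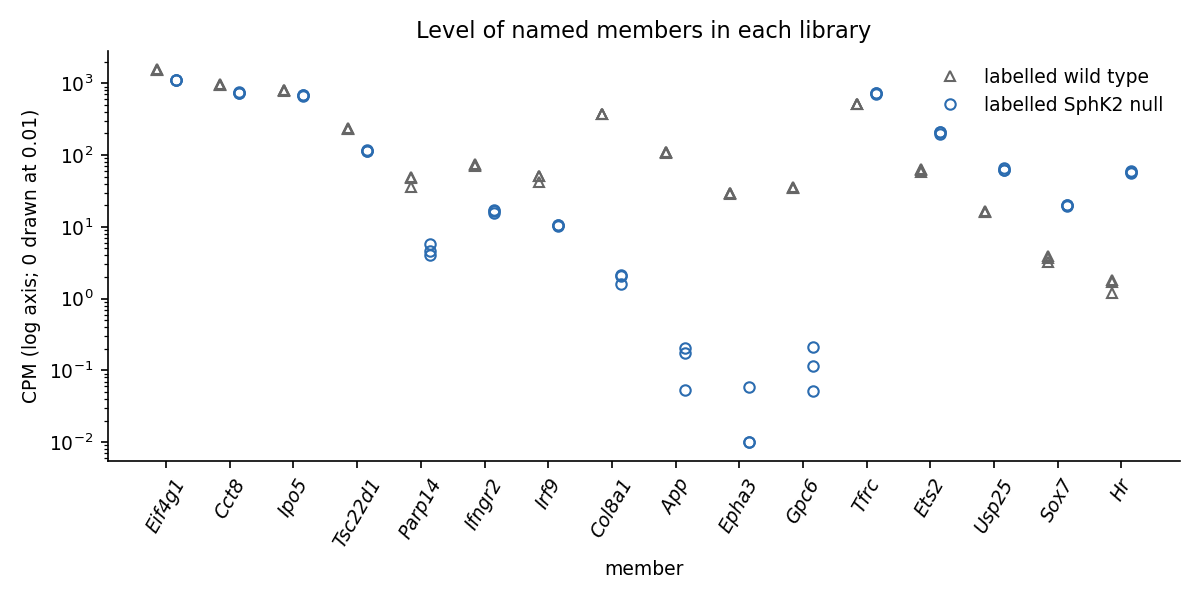
CPM (log axis, 0 drawn at 0.01) of 16 members in the wild-type-labelled (triangles) and null-labelled (circles) libraries. From left to right it shows machinery genes with small decreases, interferon genes, matrix and adhesion genes nearly lost, and members that were higher, with replicates of a group close together except where counts were few.

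Developmental signals and transcription factors went both ways. On chromosome 14, 17 of 21 were lower and 4 higher (median -1.80), and on chromosome 16, 8 of 15 were lower and 7 higher (median -0.12), beside 41.1% lower and 38.1% higher among all genes tested (median -0.020) and 65.4% and 70.8% lower over the 2 chromosomes. Bmp4, a secreted bone morphogenetic protein, had 9.12, 7.55 and 9.63 CPM against 0, 0 and 0.107 CPM, a ratio of 246 (95% counting interval 67.7 to 2035) from 511 against 2 reads. Snai2, a repressor that drives epithelial to mesenchymal transition, had 13.5, 12.01 and 13.6 CPM against 0.256, 0.175 and 0.373 CPM (log2 fold change -5.56). Sim2, a basic helix-loop-helix factor of the brain midline, had 36.9, 33.9 and 32.1 CPM against 1.08, 1.81 and 1.44 CPM (-4.59). Vgll3, a cofactor of TEAD transcription factors, had 482 reads against 0, at least 155-fold lower. In contrast, Hes1, a target of Notch signalling, had 11.3, 12.8 and 12.8 CPM against 31.9, 30.7 and 29.9 CPM (1.34 ± 0.068 SE). Gata4, an endoderm factor, was higher on few reads, at 0, 0.197 and 0 CPM against 1.49, 2.16 and 2.45 CPM. Endoderm markers as a group went both ways: of the 4 that could be tested, Gata4 and Sox7 were higher. Gata6 and Afp, on other chromosomes, were lower, at -5.12 and -0.46 on the log2 scale.

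Large losses were about as frequent as among all genes. More than 8-fold lower at an adjusted p under 0.05 were 42 members of chromosome 14 (8.86%) and 39 of chromosome 16 (8.90%), beside 8.68% of all genes tested. More than 8-fold higher were 8 and 2, beside 2.58%. No null-labelled library held a read of 8 members of chromosome 14 (Saysd1, Kcnk5, Fzd3, Lgi3, Htr2a, Pcdh20, Pcdh9 and Klhl1) or of 4 members of chromosome 16 (Cldn1, Hrasls, Vgll3 and Cbr3). Such members reached the required 60 reads through the wild-type-labelled libraries alone. Their mean of at least 1 CPM under the wild-type label follows from that rule. The best measured of these members was Kcnk5, a potassium channel, with 11.8, 11.5 and 13.3 CPM against 0, 0 and 0 CPM, at least 225-fold lower. No member was at 0 in all wild-type-labelled libraries. The share of genes at 0 in either group is not given here for the other autosomes. These counts therefore cannot show whether chromosomes 14 and 16 were unusual in this respect.

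The largest decreases among well expressed members also included Zfp503, a zinc finger repressor of limb and brain development, with 57.9, 58.98 and 61.6 CPM against 0.4099, 0.175 and 0.107 CPM, and Zfp395, a zinc finger factor, with 56.1, 59.1 and 59.8 CPM against 0.256, 0.117 and 0.213 CPM. Peli2 had 1222 against 3 reads, a ratio of 392 (95% counting interval 134 to 1903). Masp1, a serine protease of the lectin pathway of complement, had 1287 against 2 reads, a ratio of 619 (95% counting interval 171 to 5117). Nid2, a basement membrane nidogen, and Gfra2, a receptor for neurturin, fell from 19.8 ± 0.505 to 0.125 ± 0.0798 CPM and from 16.1 ± 1.19 to 0.166 ± 0.1199 CPM. On chromosome 16, Ccdc80, a matrix protein, had 900 against 3 reads, a ratio of 289 (95% counting interval 98.4 to 1402).

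Among members that averaged 3 or more on the log2 CPM scale, the largest increases lay on chromosome 14. Hr, a corepressor of nuclear receptors known from hairless mice, had 1.68, 1.84 and 1.204 CPM against 59.02, 55.7 and 57.9 CPM (log2 fold change 5.20). Stab1 had 2.15, 2.62 and 2.62 CPM against 19.6, 19.9 and 21.7 CPM (3.06), and Sox7 (values above) followed at 2.47. Piwil2, a protein that binds small RNAs of the germ line, had 23.3, 21.1 and 23.1 CPM against 94.9, 97.5 and 96.0 CPM (2.09 ± 0.047 SE). In all 4 genes every library labelled null lay above every library labelled wild type. Dock9, an activator of the small GTPase Cdc42, rose from 59.7 ± 1.51 to 160.1 ± 1.32 CPM and Tkt, the transketolase of the pentose phosphate pathway, from 261 ± 9.17 to 596 ± 6.33 CPM. On chromosome 16, besides Usp25, Ets2, Hes1 and Hic2, Prodh, the proline dehydrogenase of mitochondria, rose from 5.56 ± 0.0494 to 14.7 ± 0.393 CPM (log2 fold change 1.41 ± 0.098 SE), and Crybg3 from 19.6 ± 0.128 to 36.3 ± 0.827 CPM, sharing 15.8% of its exonic bases with Riox2.

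Upstream CG content could be set beside the changes for protein-coding members of chromosome 16, of which 307 of 377 (81.4%) had a RefSeq upstream sequence. For chromosome 14 (296 of 405, 73.1%) and for the other autosomes (78.4%) too few had one, so the check is void there. Among classes of change, at least 80% of the coding members had a sequence only for those lower by up to 8-fold, those that did not pass and those higher by up to 2-fold. The median number of CG in the 250 bases was 18 (interquartile range 12 to 24.25) in 216 of 255 lower members, 19 (10 to 21) in 33 of 41 that did not pass and 16.5 (11 to 24.5) in 22 of 26 higher members. The ranges overlapped widely, and the differences were not tested. For members more than 8-fold lower (24 of 38, 63.2%) and more than 2-fold higher (12 of 17, 70.6%) the check is void.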

How the data were processed

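Total RNA of 6 libraries was sequenced as single reads of 51 bp. The authors deposited 1 file of read counts per gene for each library, made with featureCounts 1.6.2 from an Ensembl 83 annotation on GRCm38 (mm10), per the file headers; the submitters' processing notes also name Trimmomatic 0.33, FastQC 0.11.2 and a featureCounts version of 1.2.6. Per the file headers no strand option was set, so reads of overlapping genes on either strand cannot be told apart, and a read that fell in several genes was not counted. The aligner's settings are not given in the sources used here.

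Gene symbols were matched by identifier for 98.9% of genes. The counts were tested with edgeR 4.0.16 (R 4.3.3; TMM scaling, filterByExpr, robust quasi-likelihood F-test, 3 against 3 libraries) over all 15199 genes kept, with Benjamini-Hochberg adjustment; CPM use TMM-scaled library sizes, and log2 fold changes are null-labelled over wild-type-labelled. SE is the absolute log2 fold change divided by the square root of the F statistic. It is too small where a group had few reads, so it is left out for changes of more than 8-fold. A fold against 0 reads uses 3 reads over the group, and ratios with 1 to 3 reads have exact binomial 95% intervals for counting error only. Fits with an assumed chromosome shift were added after the data were seen. The scripts were tested on simulated data. DESeq2 1.42.0 and limma 3.58.1 were alternatives.

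The members, the chromosomes and the gene lists were chosen with earlier results of these data known. Genes were named by rule: per chromosome the 6 largest changes in each direction at an average log2 CPM of at least 3, the 4 most abundant, the 3 largest changes per list, and the most abundant member of the lowest and highest window. Other members named (those at 0 reads, neighbours in the extreme windows, and Sod1, Dyrk1a, Hmgn1, Runx1, Rb1, Ifnar1, Ifnar2, Tbx1, Pkp2 and Gata4) were chosen after their values were seen. Listed symbols without a match numbered 6. One gene named by the rule is not reported here.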

Additional observations from a re-analysis of the deposited data

How the results depend on the processing

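All 806 values of the 62 called genes among the 64 named by rule kept their direction and side of the threshold over 13 alternatives (DESeq2 size factors, DESeq2, limma-voom, other filters, an adjusted p under 0.01, the replicate block, and each library left out). The other 2, Lgals3 and Ccdc50, stayed uncalled throughout, and Ccdc50 changed sign in 4 alternatives. Counts of calls on each chromosome stayed within 1.5 times their value in every alternative. Leaving out 1 library gave 301 to 306 lower and 79 to 81 higher calls on chromosome 14, 302 to 309 and 50 to 56 on chromosome 16, and shifts from -0.35 to -0.34 and from -0.48 to -0.47. The lowest window of chromosome 16 ranged from -1.78 to -1.68, and the highest windows from 0.049 to 0.096 and from 0.11 to 0.15. The chromosome 16 shift was -0.50 at an average log2 CPM from 5 upwards. Without chromosome 8 in the comparison the shifts were -0.32 on chromosome 14 and -0.44 on chromosome 16. Window extremes depended most on the choices. The lowest chromosome 14 window was -1.14 with the filter over 1 CPM and -0.56 with 10 Mb windows. The lowest chromosome 16 window was -0.81 at a summed count of at least 600, -0.73 with 10 Mb windows and -0.83 with windows shifted by 2.5 Mb. The highest windows were -0.11 and -0.12 with 10 Mb windows, and -0.045 and -0.051 with shifted windows, on chromosomes 14 and 16; the cause was not tested. Replicate numbers did not pair the libraries: deviations of same-numbered libraries correlated between -0.0028 and 0.0181. With the replicate block 310 lower and 82 higher calls on chromosome 14 and 310 and 57 on chromosome 16 remained as counts, and 391 of 392 and 366 of 367 called genes were shared. Depth limits values under 0.127 to 0.192 CPM, the level of 3 reads. SDs and p-values cannot show differences between embryos or cultures, and 3 libraries a group give no check of outliers.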

Other observations

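Members that do not encode protein, mostly pseudogenes and long noncoding RNAs, lay nearer to the other autosomes than the protein-coding members did. Of 69 tested on chromosome 14, 20 were lower and 13 higher, with a median 0.16 below that of noncoding genes on the other autosomes on the log2 scale. Of 61 on chromosome 16, 17 were lower and 14 higher, with a difference of -0.036. Protein-coding members lay 0.38 and 0.51 below. The difference between coding and noncoding members was not tested, and reads of pseudogenes can come from their parent genes on other chromosomes.

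Members on both strands of chromosome 16 had nearly the same difference from the other autosomes (-0.47 and -0.48), and on chromosome 14 it was -0.38 on the plus and -0.30 on the minus strand. Neighbouring members differed from each other by a median of 0.63 on chromosome 14 and 0.69 on chromosome 16 on the log2 scale, beside 0.71 and 0.79 for members 20 places apart. The same values on the other autosomes were 0.70 and 0.78.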
